A study of Mus musculus with 78 samples.

Results

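S3-78 is the group of male B6C3F1 mice that drank dichloroacetic acid (DCA) for 57 weeks and then plain water for 21 weeks, and it is compared here with Control-78, mice of the same strain that drank water for all 78 weeks. The libraries were chosen by their labels and by their presence in the deposited normalized table: 4 of the 6 S3-78 libraries (mice 55, 56, 59 and 60) and 6 of the 6 Control-78 libraries (mice 85 to 90) met both, so 10 libraries are compared out of 68 kept and 78 in all. Livers stored as formalin-fixed paraffin blocks were measured by TempO-Seq, where probe pairs that meet on a transcript are ligated and counted by sequencing, on a panel of 2755 genes. DCA, a by-product of water disinfection and a liver carcinogen in mice, was given at 3.5 g/L. Every label gives the age as 4 weeks, and the week in a group's name is the week of collection. Also used for comparison are S3-57 (57 weeks of DCA, collected at once, 5 of 6 libraries) with its water group Control-57 (6 of 6), Direct-78 (78 weeks of DCA without a break, 3 of 6) and S2-78 (32 weeks of DCA, then 46 weeks of water, 4 of 6). All are of the same strain and sex and, where treated, of the same dose.

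The S3-78 libraries held 1426561, 1936370, 1292750 and 1154431 counts in mice 55, 56, 59 and 60, and the Control-78 libraries held 2098777 to 4285848 (median 3505219.5). These totals do not overlap, so depth and treatment cannot be told apart in this comparison. Levels are given as CPM, counts per 1000000 counts of the TMM-scaled library, and fold changes as log2 values (log2 change) with their standard error (SE) from a model across 2205 genes. A gene was called when its fold change passed 1.5 and its adjusted p was no more than 0.05, and the words rose and fell are used of called genes alone. The counts lack molecular identifiers, so limits taken from them cover counting error only.

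The adult liver makes most plasma proteins, including complement, clotting factors and protease inhibitors, and it holds the enzymes for cholesterol synthesis, bile acids, fatty acid oxidation and the removal of foreign compounds. In mice, pulses of growth hormone keep a set of male liver genes high, among them the major urinary proteins (MUPs), and a more even hormone level keeps a set of female genes high. DCA inhibits pyruvate dehydrogenase kinase, which opens the way of pyruvate into the mitochondria, and it is broken down by the glutathione transferase GSTZ1, an enzyme of tyrosine catabolism that DCA in turn inactivates.

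The libraries carried liver transcripts, as labelled. All 9 of the hepatocyte markers on the panel were tested, none was at 0 in all S3-78 libraries, and edgeR with TMM factors called 0 of them (4 at an unadjusted p under 0.05, 1 called by DESeq2 and 1 lower with the log2 total of each library in the model). Their median log2 fold change was -1.06 (-0.90 with RLE and -0.79 with upper-quartile factors), with 8 of 9 below 0. Their summed level was 37850, 45760, 51890 and 35490 CPM in mice 55, 56, 59 and 60, against 48160 to 88580 CPM in Control-78 (median 63580), so that mice 55, 56 and 60 lay below every control, with FABP1 the most abundant by its mean over the 10 libraries, the measure used for each list below, and APOA1 the most abundant in mice 55 and 59. The markers of mouse 59 went both ways: it held 40.3 CPM of CPS1 and 216 CPM of HNF4A, below all controls (191 to 792 and 729 to 3143 CPM), and 29610 CPM of APOA1, above all controls (9395 to 13580 CPM), as did mouse 55 at 22650 CPM. In bulk tissue, fewer cells of a type and less RNA per cell cannot be told apart.

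Mice 55 and 59 stand apart. In mouse 55 the most abundant MUP, MUP8, took 0.0786% of all counts, against 2.36%, 3.76% and 12.7% in mice 56, 59 and 60 and 8.79% to 35.3% in Control-78 (median 18.8%). Markers of pancreatic acinar cells, 15 genes on the panel of which 10 were tested, summed to 408, 157, 157 and 188 CPM against 446 to 663 CPM in the controls. Their most abundant gene was AMY1, an amylase that liver also makes, which fell. Without it the sum was 289, 33.5, 151 and 83.8 CPM in mice 55, 56, 59 and 60, against 10.9 to 75.9 CPM. Mouse 59 had the highest sums of muscle, brain and other tissue genes (467 CPM, against 201, 77.8 and 99.0 in mice 55, 56 and 60 and 57.9 to 115 in Control-78), a list of 18 genes of which 7 were tested, with GRIA3 the most abundant and MYL2 at 0 in S3-78. Among the blood lineages, the 5 erythroid markers, all tested, summed to 681, 677, 239 and 585 CPM against 971 to 2011 CPM, led by HBA-A2. The 4 B and plasma cell markers, 3 tested, summed to 20.4, 63.1, 62 and 52.5 CPM against 8.84 to 17.1 CPM, led by IGLC2. The erythroid sums lay below and the B and plasma cell sums above all controls.

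The sums of the 7 macrophage markers (521, 1670, 1964 and 789 CPM against 583 to 2063, led by LYZ2), the 9 stellate cell markers (127, 172, 342 and 384 against 130 to 285, led by VIM), the 3 cholangiocyte markers (73.03, 45.5, 173 and 20.6 against 20.9 to 411, led by SPP1) and the 7 neutrophil markers, 3 of them tested (400, 237, 1135 and 407 against 107 to 1491, led by LCN2), overlapped the controls. The 6 endothelial markers summed to 177, 171, 109 and 133 CPM against 140 to 167 CPM, led by VWF, with mice 55 and 56 above and mice 59 and 60 below the controls. Overlap was also seen for the 6 adipocyte markers, 4 tested (57.2, 65.1, 174 and 82.2 against 49.1 to 127, led by FABP4, with ADIPOQ at 0 in S3-78) and the 7 T and NK cell markers, 1 tested (8.17, 15.6, 64.1 and 28.9 against 5.18 to 28.4, led by CD8B1, with CD3D and GZMA at 0 in S3-78). With TMM factors, 1 of the tested markers of these cell types rose (GRIA3) and 2 fell (ALAS2 and AMY1). With RLE or upper-quartile factors 1 stellate, 1 neutrophil and 1 endothelial marker were also called higher, as was 1 neutrophil marker without mouse 55. With the log2 total in the model 1 macrophage marker was called higher, and the macrophage median was 1.86 against 0.57. GRIA3 and AMY1 were not called in that model. DESeq2 called 1 marker in each of the stellate, macrophage, B and plasma cell, neutrophil and endothelial lists. GRIA3 had 53.6, 22, 325 and 16.8 CPM against 3.29 to 23.5, with mice 56 and 60 among the controls. Its call was lost in 3 of 10 fits that each left out 1 library (largest adjusted p 0.346, without mouse 59). The part of these cells in the results below was not tested, and counts are given with and without mouse 55 for the lists with calls.

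In liver 21 weeks after DCA ended, 7 of 10 male-biased genes tested fell against age-matched water controls (4 without mouse 55). EBP of cholesterol synthesis fell too, while the p53 target BBC3 and the catenin CTNND1 rose. With the log2 total of each library in the model, 3 of the 10 male-biased genes were called lower. Of the 7 that fell, only CYP2D9 and MUP13 kept the call in that model. Of 2205 genes tested, 294 were called (13.3%), 129 of them higher (5.85%) and 165 lower (7.48%). The 4 S3-78 libraries lay outside the range of all 6 controls in 285 genes (12.9%), above it in 112 (5.08%) and below it in 173 (7.85%). Without mouse 55, 148 genes were called (6.71%), 67 higher (3.04%) and 81 lower (3.67%), and 140 of these were among the 294 (94.6% of the shorter list and 47.6% of the longer). The count was 117 when the log2 total of each library was a term of the model, EBP, BBC3 and CTNND1 among them. DESeq2 called 233 higher and 187 lower, and other scaling factors in edgeR also shifted the split, so the share of called genes that was higher ran from 43.9% (TMM) through 55.7% (RLE) to 61.7% (upper quartile). The median log2 fold change of all genes was 0.07 with TMM, 0.27 with RLE and 0.34 with upper-quartile factors. Of 121 called genes named here or belonging to the gene lists, 52 kept their call in every fit that left out 1 of the 10 libraries, and these 10 fits are meant wherever a call is said to be kept or lost below. With the log2 total in the model 36 of the 121 kept it, and of the genes named here these were SULT3A1, BBC3, SASH3, CTNND1, ABCG1, FOXO3, CD44, RRM1, H2AFX, DSC2, SDPR, EBP, C9, DECR1, ME1, PRDX1, PCBD1, AADAT, CYP2D9, MUP13, BPNT1, FMO5, ALDH8A1, ALDH9A1, CANX, HERPUD1, HSPA4, HSP90AA1, DNAJB1, NDUFA9, NDUFB5, P4HA2, DPM1 and ALAS2. Gene lists are given as counts, without a set test, to be read beside the 5.85% and 7.48% of all genes.

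The rises beyond the range of every control were led by SULT3A1, a sulfotransferase of female mouse liver (ENSMUSG00000069668, chromosome 10 from 33857721 to 33879532 in GENCODE vM21, GRCm38). SULT3A1 had 971, 29.5, 4.77 and 12.2 CPM in mice 55, 56, 59 and 60, against 0 to 1.39 (median 0.779) in Control-78, and its log2 fold change was 8.30 (SE 1.52, adjusted p = 0.000299). Mouse 55 lay far above the others, and without it the change was 4.28 (adjusted p = 0.042). KIF5C, a motor protein of the kinesin family, was at 27.6, 16.4, 256 and 7.62 CPM against 0 to 6.67 (median 2.08), a log2 change of 4.74 (SE 1.49, adjusted p = 0.0239). All 4 libraries lay above the controls, mouse 59 by far the most, and KIF5C lost the call in 3 of 10 fits (largest adjusted p 0.288, without mouse 59). BBC3 (PUMA), which promotes apoptosis and is induced by p53, had 195, 212, 222 and 355 CPM against 15 to 76.2 (median 31.9), with a log2 change of 2.72 (SE 0.50, adjusted p = 0.000299). All 4 libraries were above the controls, mouse 60 by the most, and BBC3 was called in every fit without 1 library (ENSMUSG00000002083, chromosome 7 from 16308393 to 16318205).

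INHBA encodes the chain of activin A, a ligand of the TGF-beta family. It reached 570.4, 396, 1795 and 651 CPM in mice 55, 56, 59 and 60 against 70 to 159.9 (median 144) in the controls, a log2 change of 2.68 (SE 0.76, adjusted p = 0.0122). Every treated library exceeded every control, and INHBA lost the call in 1 of 10 fits (largest adjusted p 0.0923, without mouse 59). With the log2 total in the model it was at 1.19 (adjusted p = 0.44) and not called, and over all alternatives its adjusted p ran from 0.00111 to 0.44. CTNND1, the p120 catenin that holds cadherins at the cell surface, had 7107, 4462, 6691 and 5861 CPM against 904 to 1487 (median 1121), a log2 change of 2.41 (SE 0.42, adjusted p = 0.000219). Its treated libraries lay close together and well clear of the controls, with and without mouse 55. The other rises in this group of 10 were RAD51L1 (3.15), a recombination repair protein, SASH3 (2.62), an adaptor of lymphocytes, TCEA2 (2.47), a transcription elongation factor, NPDC1 (2.42), and NQO1, described with the antioxidant genes. RAD51L1 lost the call in 8 of 10 fits (largest adjusted p 0.108, without mouse 56), TCEA2 lost the call in 8 of 10 fits (largest adjusted p 0.118, without mouse 59), SASH3 lost the call in 1 of 10 fits (largest adjusted p 0.22, without mouse 59), and NPDC1 lost the call in 1 of 10 fits (largest adjusted p 0.0529, without mouse 55). SASH3 had 36.3, 51.9, 300 and 48.7 CPM against controls of up to 34.2, mouse 59 being far the highest. Its log2 change was as low as 1.36 in these fits.

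Among the falls of the same kind, 4 of the 10 largest were in the MUP family, described below with the sex-biased genes. EBP, the sterol isomerase of cholesterol synthesis (ENSMUSG00000031168, chromosome X from 8185329 to 8193512), had 7.15, 33.9, 41.9 and 17.5 CPM in mice 55, 56, 59 and 60, against 59.1 to 532 (median 230.3) in the controls, a log2 change of -3.40 (SE 0.65, adjusted p = 0.000381). The highest treated library lay under the lowest control. SERPINA3K, a protease inhibitor that the liver secretes, was at 4578, 9465, 1430.3 and 8605 CPM against 27773 to 103830 (median 62073), a log2 change of -3.36 (SE 0.85, adjusted p = 0.0056). Treated and control ranges were far apart, with mouse 59 the lowest. C9, the last component of the complement attack complex, had 485, 3573, 4512 and 5429 CPM against 14362 to 62918 (median 27905), with a log2 change of -3.12 (SE 0.80, adjusted p = 0.00611). Mouse 55 was lowest, and C9 kept its call without it, at -2.76 (adjusted p = 0.0382). GM9790, annotated as a processed pseudogene, had 3.06, 2.4, 3.71 and 4.57 CPM against 14.2 to 45.3 (median 33), a log2 change of -3.23 (SE 0.79, adjusted p = 0.00466).

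Both remaining genes of these 10 falls were at low counts. The melatonin receptor gene MTNR1A had 0, 1.6, 0 and 6.85 CPM against 7.54 to 42.1 (median 20.5), a log2 change of -3.37 (SE 0.92, adjusted p = 0.00966). IL18, an inflammatory cytokine, had 0, 3.19, 0 and 1.52 CPM against 4.17 to 21.6 (median 12.2), a log2 change of -3.26 (SE 0.93, adjusted p = 0.0132). In each, a pair of treated libraries had no count, and the others lay below the lowest control. MTNR1A lost the call in 1 of 10 fits (largest adjusted p 0.0545, without mouse 55), and IL18 lost the call in 2 of 10 fits (largest adjusted p 0.0637, without mouse 55).

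**Figure D1:**
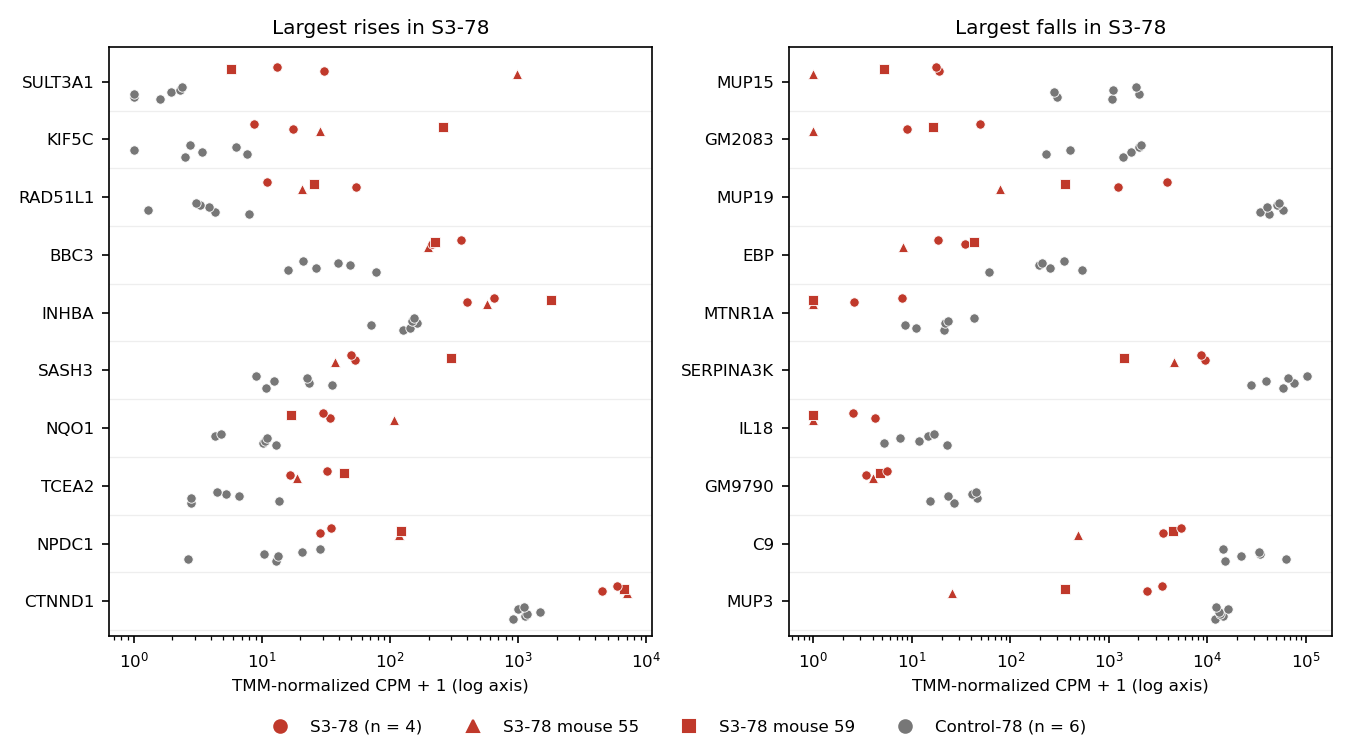
TMM-normalized CPM plus 1 on log axes for the 10 largest rises and 10 largest falls among called genes whose S3-78 libraries (red, n = 4) all lie outside the Control-78 libraries (grey, n = 6), with 1 point per library. Mouse 55 (triangle) sits far above the others in SULT3A1 and mouse 59 (square) in KIF5C, while the 4 libraries of CTNND1 and GM9790 lie close together.

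Sex-biased liver genes were the lists furthest from the median of all genes. Of the 10 male-biased genes and MUPs tested, 7 fell and none rose, with a median log2 fold change of -2.84 against 0.07 over all genes, and 4 fell without mouse 55. Of the 5 female-biased genes tested, 3 rose and none fell, with a median of 3.38, but 1 rose without mouse 55, where the median was 0.49. MUP15, a secreted carrier of pheromones (ENSMUSG00000096674, chromosome 4 from 61435790 to 61439743), had 0, 18, 4.24 and 16.8 CPM in mice 55, 56, 59 and 60 against 279 to 2011 (median 1079), a log2 change of -6.82 (SE 1.76, adjusted p = 0.00647). MUP19 had 77.6, 1243, 359.8 and 3904 CPM against 34176 to 58173 (median 46746), a log2 change of -5.06 (SE 1.31, adjusted p = 0.00657). MUP3 had 24.5, 2426, 358 and 3508 CPM against 11965 to 16382 (median 13311), a log2 change of -3.11 (SE 0.87, adjusted p = 0.0112). In all 3 the treated libraries lay below every control, mouse 55 was the lowest, and the call was kept without each library in turn. With the log2 total in the model MUP15, MUP19 and MUP3 were at -3.92, -4.07 and -2.49 and short of a call. MUP genes are near-identical copies, so which member a count belongs to is uncertain. GM2083, which the annotation lists as a name of Mup13, had 0, 7.98, 15.4 and 48 CPM against 229 to 2131 (median 1539.9), a log2 change of -6.23 (SE 1.63, adjusted p = 0.00689).

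The probe named MUP13 had 34.2, 926, 883 and 5111 CPM against 5598 to 26450 (median 9772), a log2 change of -2.85 (SE 0.98, adjusted p = 0.0405). It lost the call in 5 of 10 fits (largest adjusted p 0.13, without mouse 55). With all 78 libraries in the fit MUP13 was at 0.02, and mice 57 and 58 of S3-78, left out here, were above every control as CPM of their totals (35670 and 28200). MUP8 was not called: its libraries had 572, 18242, 25751 and 111410 CPM against 94427 to 617580 (median 246650) in the controls, a log2 change of -2.83 (SE 1.02, adjusted p = 0.053). Mouse 60 lay within the control range. Of the male enzymes, CYP2D9, a steroid hydroxylase, was at 142, 881, 666 and 1618 CPM against 1897 to 5112 (median 3096), a log2 change of -2.03 (SE 0.57, adjusted p = 0.0123). ELOVL3, which lengthens fatty acids, had 10.7, 15.2, 28.6 and 429 CPM against 106 to 3388 (median 1802), a log2 change of -3.83 (SE 1.33, adjusted p = 0.0428). CYP2D9 lay below all controls in 4 of 4 libraries, and in ELOVL3 mouse 60 overlapped them. CYP2D9 lost the call in 1 of 10 fits (largest adjusted p 0.0727, without mouse 55), and ELOVL3 lost the call in 6 of 10 fits (largest adjusted p 0.136, without mouse 55).

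The female gene CYP2A4, a steroid hydroxylase, had 3651, 127, 1246 and 54.1 CPM against 10.8 to 69.3 (median 29.1), a log2 change of 5.13 (SE 1.28, adjusted p = 0.00501). Mice 55 and 59 were far above the controls and mouse 60 was within their range. Without mouse 55 the change was 3.71 (adjusted p = 0.0556), past the limit for a call. CYP17A1, an enzyme of steroid hormone synthesis, had 601, 6.79, 56.2 and 4.57 CPM against 1.67 to 26.4 (median 18), a log2 change of 3.38 (SE 0.99, adjusted p = 0.0157). The rise was carried by mouse 55, and without it the change was 0.49 (adjusted p = 0.794).

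**Figure D2:**
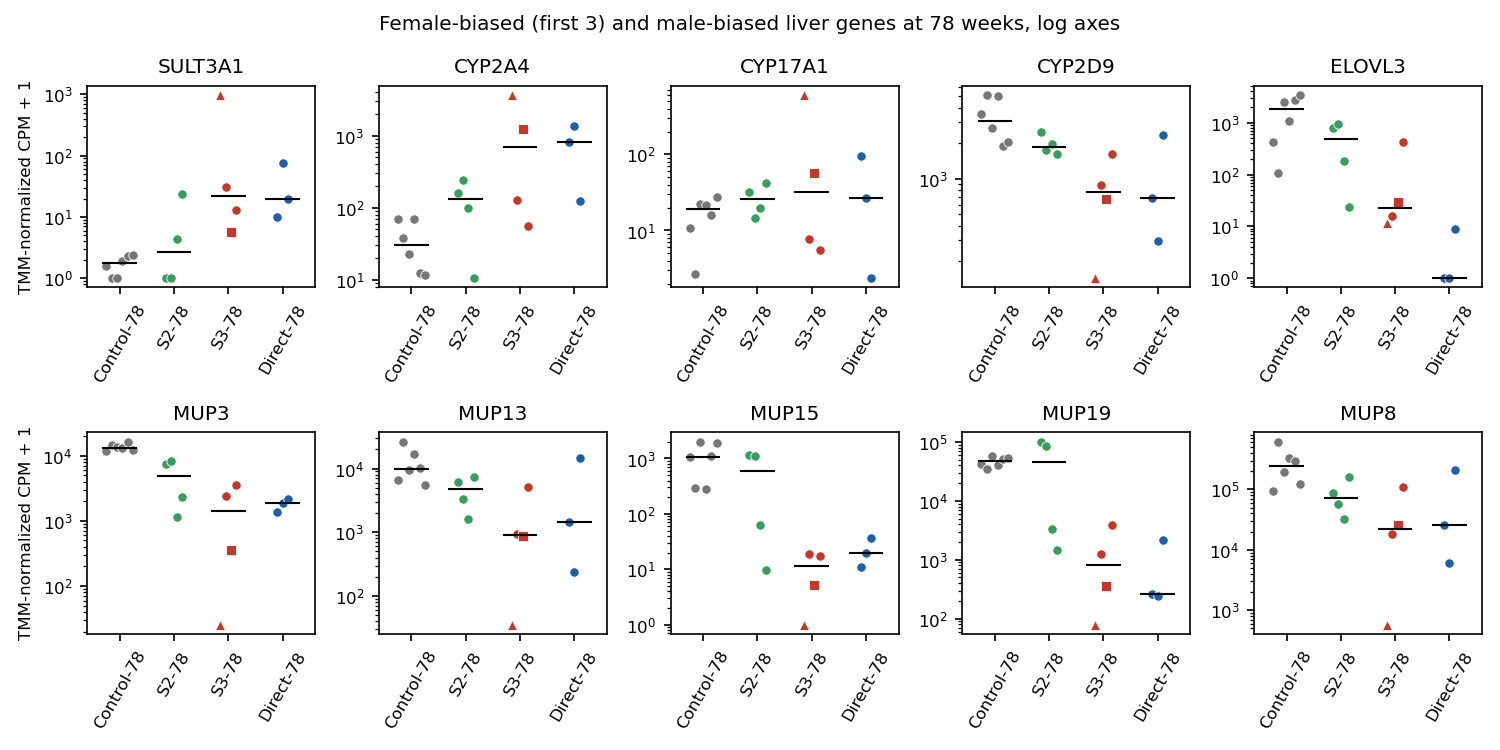
TMM-normalized CPM plus 1 on log axes for 3 female-biased and 7 male-biased liver genes in Control-78 (n = 6), S2-78 (n = 4), S3-78 (n = 4) and Direct-78 (n = 3), 1 point per library with a line at the median. S3-78 mouse 55 (triangle) is the highest of its group in SULT3A1, CYP2A4 and CYP17A1 and the lowest in all 5 MUPs shown, and mouse 59 is a square.

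Of 11 cholesterol synthesis genes tested, 3 fell (27.3%) and none rose, with a median log2 fold change of -0.91 (-0.60 by RLE, -0.56 by upper-quartile scaling), and 1 fell without mouse 55, EBP. With RLE factors 2 fell, FDFT1 not being called, and with upper-quartile factors 1 fell, EBP. MVD, which makes isopentenyl diphosphate, had 7.15, 0, 10.1 and 16.8 CPM against 9.18 to 75.5 (median 47.5), a log2 change of -2.47 (SE 0.77, adjusted p = 0.0239). FDFT1, squalene synthase, was at 145, 153, 224 and 176 CPM against 251 to 654 (median 383), a log2 change of -1.22 (SE 0.38, adjusted p = 0.0239). MVD overlapped the controls and FDFT1 did not, and both lost calls: MVD lost the call in 3 of 10 fits (largest adjusted p 0.0875, without mouse 56), and FDFT1 lost the call in 4 of 10 fits (largest adjusted p 0.0862, without mouse 55).

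Of 11 genes of sterol sensing, uptake and export, 1 rose and 2 fell (median -0.47), and all 3 calls were kept without mouse 55. INSIG1, which holds the sterol sensor in the endoplasmic reticulum, had 247, 376, 277 and 238 CPM against 422 to 1258 (median 808), a log2 change of -1.52 (SE 0.42, adjusted p = 0.0104). APOE, the apolipoprotein of lipoprotein uptake, had 15572, 26781, 18296 and 16678 CPM against 30866 to 76212 (median 36668), a log2 change of -1.16 (SE 0.30, adjusted p = 0.00648). ABCG1, a cholesterol exporter, had 81.7, 59.9, 37.6 and 45.7 CPM against 4.93 to 18 (median 11.8), a log2 change of 2.25 (SE 0.61, adjusted p = 0.00938). No treated library of these 3 genes overlapped the controls, and each kept its call without any 1 library.

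Of 11 bile acid genes, 1 fell (median -0.65), also without mouse 55. This was BAAT, which joins bile acids to taurine, with 115, 265, 87.4 and 276 CPM against 323 to 713 (median 644) and a log2 change of -1.67 (SE 0.42, adjusted p = 0.00531). CYP7A1, the rate-limiting enzyme of bile acid synthesis, had 901, 1353, 94.9 and 1167 CPM against 140.2 to 355 (median 287), a log2 change of 1.77 (SE 0.81, adjusted p = 0.136). Mice 55, 56 and 60 were above every control and mouse 59 was below them, and CYP7A1 was not called.

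Of 23 genes of fatty acid oxidation and the receptor PPARA, 5 fell (21.7%) and 1 rose (4.35%, median -0.75), with 2 falls and 1 rise without mouse 55. With upper-quartile factors 3 fell and 1 rose, and SLC27A2 and ETFB, given below, were not called. DECR1, which handles unsaturated fatty acids in the mitochondria, had 25, 171, 133 and 186 CPM against 415 to 1334 (median 530.0), a log2 change of -2.39 (SE 0.53, adjusted p = 0.0018). HADHA, a subunit of the trifunctional protein of beta-oxidation, had 149, 390.0, 461 and 440.1 CPM against 774 to 1259 (median 856), a log2 change of -1.35 (SE 0.36, adjusted p = 0.00832). Both lay below every control, and HADHA lost the call in 1 of 10 fits (largest adjusted p 0.0637, without mouse 55). The gene that rose was SLC27A1, a fatty acid transporter best known from muscle and fat, with 221, 227, 179 and 123 CPM against 46.7 to 140.2 (median 56.1) and a log2 change of 1.41 (SE 0.38, adjusted p = 0.00969). Mouse 60 overlapped the highest control, and the call was kept without each library. HADH, SLC27A2 and ETFB also fell, from -1.52 to -0.89. HADH lost the call in 2 of 10 fits (largest adjusted p 0.0685, without mouse 55), SLC27A2 lost the call in 6 of 10 fits (largest adjusted p 0.174, without mouse 59), and ETFB lost the call in 1 of 10 fits (largest adjusted p 0.0691, without mouse 59). Of 6 genes of fatty acid and triglyceride synthesis, 1 fell, ME1 (median -1.04), and it was not called without mouse 55.

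Of 23 respiratory chain genes, 5 fell and none rose (median -0.80), 4 of them also without mouse 55. NDUFB5, a complex I subunit (ENSMUSG00000027673, chromosome 3 from 32736990 to 32751566), had 28.6, 178, 243 and 174 CPM in mice 55, 56, 59 and 60 against 612 to 1558 (median 1022), a log2 change of -2.69 (SE 0.48, adjusted p = 0.000219). NDUFV1, the complex I subunit that binds NADH, had 76.6, 79, 70.5 and 52.5 CPM against 208 to 393 (median 313), a log2 change of -2.12 (SE 0.53, adjusted p = 0.0051). In both, each treated library was below every control and the call was kept in all 10 fits without 1 library. The same held for the calls of NDUFA9 (-1.35) and NDUFV3 (-1.25), while USMG5 (-2.96), of the ATP synthase, lost the call in 2 of 10 fits (largest adjusted p 0.0591, without mouse 59). With TMM factors no gene was called by edgeR among the 10 tested of pyruvate dehydrogenase and the citric acid cycle, whose median was -0.15 with TMM but 0.02 with RLE and 0.12 with upper-quartile factors (1 at an unadjusted p under 0.05, 1 called by DESeq2, 1 higher with upper-quartile factors and 1 lower with the log2 total in the model), nor among the 14 of glycolysis, gluconeogenesis and glycogen, whose median was -0.10 with TMM but 0.08 with RLE and 0.14 with upper-quartile factors (6 at an unadjusted p under 0.05, 4 called by DESeq2, 1 higher with RLE, 2 higher with upper-quartile factors and 1 lower with the log2 total).

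Genes of the NRF2 response to oxidants did not move as a block. NRF2 is a transcription factor that KEAP1 holds for degradation until oxidants or electrophiles free it. Of 28 genes tested, 3 rose and 7 fell, and 1 rose and 3 fell without mouse 55. Their median log2 fold change was -0.25 with TMM but 0.02 with RLE and 0.07 with upper-quartile factors. NFE2L2, which encodes NRF2, had 42.9, 58.3, 197 and 63.2 CPM against 44.6 to 129 (median 65.2) and was not called, at 0.22 (SE 0.38, adjusted p = 0.74). KEAP1 had 132, 144, 88 and 93.7 CPM against 132 to 246 (median 225), a log2 change of -0.88 (SE 0.29, adjusted p = 0.0304). Mouse 59 was the highest of all 10 libraries for NFE2L2, and KEAP1 lost the call in 5 of 10 fits (largest adjusted p 0.115, without mouse 59).

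Among the targets, NQO1, a quinone reductase, had 106, 32.7, 15.9 and 28.9 CPM against 3.29 to 11.9 (median 9.42), a log2 change of 2.53 (SE 0.73, adjusted p = 0.0148). All 4 libraries exceeded the controls, with mouse 55 the highest, and without mouse 55 the change was 1.70 (adjusted p = 0.163), the single loss of the call among 10 fits. The carbonyl reductase CBR1 had 75.1, 37.5, 17 and 25.1 CPM against 6.61 to 30 (median 12.6), a log2 change of 1.38 (SE 0.44, adjusted p = 0.0249), and overlapped the controls. CBR3, of the same family, had 13.3, 3.59, 88 and 10.7 CPM against 1.67 to 7.59 (median 3.78), a log2 change of 2.79 (SE 0.75, adjusted p = 0.00884), and the rise was carried by mouse 59. CBR1 lost the call in 4 of 10 fits (largest adjusted p 0.257, without mouse 55), and CBR3 lost the call in 1 of 10 fits (largest adjusted p 0.379, without mouse 59).

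The fallen targets included PRDX1, a peroxide-removing enzyme, with 1542, 1863, 955 and 1211 CPM against 3318 to 4500 (median 3856) and a log2 change of -1.48 (SE 0.32, adjusted p = 0.00165). GSTP1, a glutathione transferase that is higher in male mouse liver, had 2450.2, 2297, 4789 and 4879.7 CPM against 11615 to 27438 (median 22958), a log2 change of -2.57 (SE 0.53, adjusted p = 0.000892). SQSTM1, the autophagy receptor p62, had 159.8, 291, 135 and 162 CPM against 395 to 1173 (median 687), a log2 change of -1.98 (SE 0.47, adjusted p = 0.00363). These 3 lay below every control in 4 of 4 libraries and kept their calls without each library, but SQSTM1 was at -0.69 and not called with the log2 total in the model, and GSTP1 at -1.71 and not called. ME1, malic enzyme, a source of NADPH, had 165, 370.5, 244 and 385 CPM against 762 to 1656 (median 948), a log2 change of -1.89 (SE 0.51, adjusted p = 0.00884). GCLM, the modifier subunit of the rate-limiting enzyme of glutathione synthesis, had 94.5, 220.0, 88.5 and 110.4 CPM against 212 to 365 (median 239), a log2 change of -1.04 (SE 0.31, adjusted p = 0.019). SRXN1, sulfiredoxin, had 58.2, 88.6, 143 and 87.6 CPM against 64.5 to 2911 (median 117), a log2 change of -2.77 (SE 0.77, adjusted p = 0.0112). ME1 did not overlap the controls, GCLM did in mouse 56, and SRXN1 lay within the control range in 3 libraries, the highest control being mouse 90. ME1 lost the call in 1 of 10 fits (largest adjusted p 0.0529, without mouse 55), GCLM lost the call in 3 of 10 fits (largest adjusted p 0.089, without mouse 55), and SRXN1 lost the call in 2 of 10 fits (largest adjusted p 0.311, without mouse 90). Of 10 glutathione transferases, 1 was called, GSTP1, also without mouse 55, where the median went from 0.04 to -0.42.

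**Figure D3:**
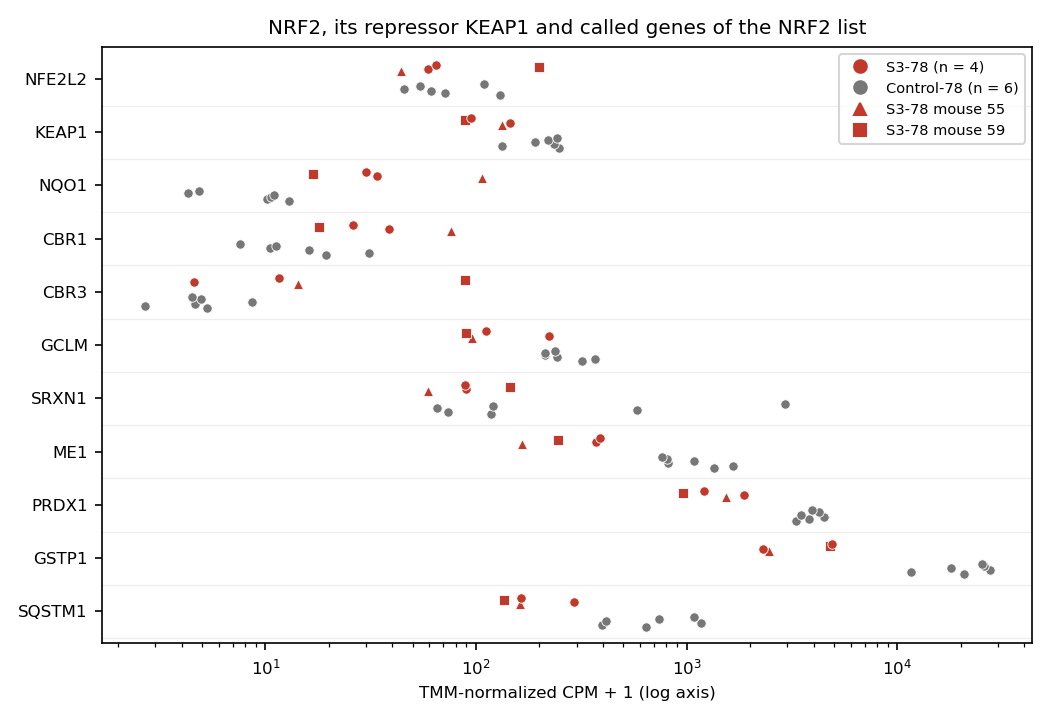
TMM-normalized CPM plus 1 on a log axis for NFE2L2 and the 10 called genes of the NRF2 list, 1 point per library, S3-78 in red (n = 4) and Control-78 in grey (n = 6). NQO1 lies above and ME1, PRDX1, GSTP1 and SQSTM1 lie below all controls, and the SRXN1 fall rests on a control library at 2911 CPM.

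NRF2 binds the antioxidant response element, searched for here as TGACNNNGC on both strands of the promoter, from 250 bases before to 50 after the start of transcription in RefSeq. Of the 28 NRF2 genes tested, 24 had 1 or more promoter sequences, 30 in all, and 12 of the 30 held a match (40%), in 11 genes, against 4071 of all 32851 promoters (12.4%). No match was found for the risen genes NQO1, CBR1 and CBR3 or for the fallen genes KEAP1, SQSTM1 and GSTP1. NFE2L2, TXNRD1, G6PDX, ABCC2, ABCC4, MAFF and UGDH, which were not called, held a match. The promoters of 4 fallen genes that held a match follow, chosen after the values were seen. They are from GRCm38.p6, written along the gene's strand with the match in capitals: Gclm at chr3:122245307-122245606 (+), Srxn1 at chr2:152105274-152105573 (+), Me1 at chr9:86695865-86696164 (-) and Prdx1 at chr4:116685349-116685648 (+).
Gclm: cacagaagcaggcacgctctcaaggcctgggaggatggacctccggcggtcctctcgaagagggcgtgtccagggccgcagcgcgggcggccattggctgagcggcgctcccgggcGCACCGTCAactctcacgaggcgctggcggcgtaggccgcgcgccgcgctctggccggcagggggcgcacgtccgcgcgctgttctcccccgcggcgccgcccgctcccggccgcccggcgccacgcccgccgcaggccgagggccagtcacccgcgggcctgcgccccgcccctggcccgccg
Srxn1: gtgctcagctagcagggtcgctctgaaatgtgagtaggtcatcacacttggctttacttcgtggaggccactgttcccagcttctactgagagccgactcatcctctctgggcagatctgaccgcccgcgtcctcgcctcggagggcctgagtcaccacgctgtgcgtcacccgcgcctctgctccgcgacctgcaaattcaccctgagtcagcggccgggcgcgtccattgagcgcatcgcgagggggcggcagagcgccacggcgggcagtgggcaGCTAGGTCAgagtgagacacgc
Me1: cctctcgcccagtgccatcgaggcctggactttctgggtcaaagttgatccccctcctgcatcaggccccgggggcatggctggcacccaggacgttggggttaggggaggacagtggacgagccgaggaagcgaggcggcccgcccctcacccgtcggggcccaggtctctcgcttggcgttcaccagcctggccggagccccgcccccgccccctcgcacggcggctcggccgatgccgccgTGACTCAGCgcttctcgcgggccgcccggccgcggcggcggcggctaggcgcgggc
Prdx1: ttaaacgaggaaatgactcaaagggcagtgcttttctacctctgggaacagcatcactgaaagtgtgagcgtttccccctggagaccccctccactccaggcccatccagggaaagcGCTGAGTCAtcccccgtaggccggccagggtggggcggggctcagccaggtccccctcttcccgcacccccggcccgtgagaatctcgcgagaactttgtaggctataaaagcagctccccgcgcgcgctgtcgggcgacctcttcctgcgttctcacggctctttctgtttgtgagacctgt

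A match is a description of letters and no measure of binding. The NRF2 list was chosen for the NRF2 response, so its larger share of matches is no independent support. Elements outside the stretch searched could not be found, so a gene without a match may hold one elsewhere. The sterol response element, searched for as TCACNCCAC on both strands, was in 1 of 10 promoters of 8 cholesterol synthesis genes, that of HMGCS1, and in 0 of 10 promoters of 7 genes of the sterol sensing list, against 1.24% of all promoters.

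Of 20 glucuronosyltransferases, sulfotransferases and other conjugating enzymes, 6 fell (30%) and SULT3A1 rose (median -1.08), and 4 fell without mouse 55. UGT3A2, which adds a sugar to small lipophilic compounds, had 283, 1040.3, 138 and 339 CPM against 1687 to 2523 (median 2182), a log2 change of -2.26 (SE 0.55, adjusted p = 0.00438). BPNT1, which clears the by-product of sulfation, had 85.8, 216, 209.8 and 294 CPM against 409 to 934 (median 669), a log2 change of -1.69 (SE 0.30, adjusted p = 0.000219). Neither overlapped the controls in any library, and both were called in all 10 fits without 1 library. UGT2B5, a glucuronosyltransferase, had 5.11, 57.5, 3.71 and 28.2 CPM against 125 to 267 (median 199), a log2 change of -3.09 (SE 0.86, adjusted p = 0.0108). UGT2B5 also lay below every control and lost the call in 1 of 10 fits (largest adjusted p 0.0595, without mouse 55). BAAT, named above, UGT1A6A (-1.23) and UGT2B36 (-2.42) were the others, and UGT2B36 lost the call in 2 of 10 fits (largest adjusted p 0.07, without mouse 59).

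Of 21 carboxylesterases, flavin monooxygenases, aldehyde dehydrogenases and epoxide hydrolases, 6 fell (28.6%) and none rose (median -0.88), with 2 falls without mouse 55. FMO5, a flavin monooxygenase, had 779.8, 908, 474 and 558 CPM against 975 to 3732 (median 2222), a log2 change of -1.67 (SE 0.32, adjusted p = 0.000365). Treated and control libraries did not overlap, and the call was kept in every fit. The others were CES2A, EPHX2, ALDH2, ALDH8A1 and ALDH9A1, from -1.92 to -0.88. ALDH9A1 kept its call in all 10 fits, CES2A lost the call in 2 of 10 fits (largest adjusted p 0.109, without mouse 59), EPHX2 lost the call in 2 of 10 fits (largest adjusted p 0.118, without mouse 59), ALDH2 lost the call in 2 of 10 fits (largest adjusted p 0.144, without mouse 59), and ALDH8A1 lost the call in 2 of 10 fits (largest adjusted p 0.134, without mouse 86).

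Of 22 genes of cytochrome P450 families 1 to 3 and their receptors, 3 rose and 2 fell, and the median was -0.15 with TMM, -0.02 with RLE and 0.09 with upper-quartile factors. Without mouse 55, 2 rose, both falls were lost and the median was -0.91. CYP2C38, an epoxygenase, had 643, 497, 16.4 and 74.6 CPM against 2.96 to 94.3 (median 14.4), a log2 change of 3.47 (SE 0.85, adjusted p = 0.00434). CYP2F2, which oxidizes naphthalene, had 660.3, 820.0, 100.2 and 759 CPM against 1614 to 4152 (median 2967), a log2 change of -2.33 (SE 0.73, adjusted p = 0.0239). Mice 55 and 56 of CYP2C38 were above the controls and mice 59 and 60 within their range, while CYP2F2 lay below the controls throughout and lost the call in 2 of 10 fits (largest adjusted p 0.1, without mouse 59). ARNT, the partner of the aryl hydrocarbon receptor and of HIF1A, had 1286, 1022, 1082 and 924 CPM against 459 to 645 (median 546), a log2 change of 1.00 (SE 0.26, adjusted p = 0.00636). It was above all controls in 4 of 4 libraries, and it was the rise among 11 genes of HIF1A and hypoxia, of which P4HA2 fell (median 0.28), with 1 rise and no fall without mouse 55. P4HA2 lost the call in 1 of 10 fits (largest adjusted p 0.0605, without mouse 55).

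Of 21 endoplasmic reticulum stress genes, 5 fell (23.8%) and 1 rose (4.76%, median -1.20), with 3 falls and 1 rise without mouse 55. CANX, a chaperone of new glycoproteins, had 1287, 1911, 1893 and 1558 CPM against 2956 to 4564 (median 4136), a log2 change of -1.27 (SE 0.25, adjusted p = 0.000583). HERPUD1, a factor of protein degradation at the reticulum, had 817, 773, 314 and 767 CPM against 871 to 4203 (median 2995), a log2 change of -2.01 (SE 0.50, adjusted p = 0.00493). Both were below every control and kept their calls. Among the controls HERPUD1 was at 1184 and 871 CPM in mice 85 and 86 and at 2772 to 4203 in mice 87 to 90. HSPA5, given below, was likewise lower in mice 85 and 86 (160 and 122 CPM) than in mice 87 to 90 (447 to 1086). The cause of this spread among the controls was not tested. TRIB3, a pseudokinase induced by ATF4 and CHOP, had 545, 315, 598 and 71.6 CPM against 21.2 to 90.1 (median 59.6), a log2 change of 2.82 (SE 0.76, adjusted p = 0.00884). Mice 55, 56 and 59 exceeded all controls, mouse 60 lay among them, and the call was kept in all fits. KDELR2 (-2.30) fell in every fit, ERO1L (-2.81) lost the call in 4 of 10 fits (largest adjusted p 0.128, without mouse 55), and ATF6 (-1.80) lost the call in 2 of 10 fits (largest adjusted p 0.118, without mouse 55). HSPA5, the main chaperone of the reticulum, had 218, 136, 238 and 373 CPM against 122 to 1086 (median 565) and was not called, at -1.21 (SE 0.47, adjusted p = 0.078).

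Of 14 heat shock proteins and cytosolic chaperones, 4 fell and 2 rose (median -0.96), with 3 falls and no rise without mouse 55. HSP90AA1, the inducible HSP90, had 393, 479, 1058 and 915 CPM against 1381 to 4178 (median 3036), a log2 change of -2.05 (SE 0.36, adjusted p = 0.000219). FKBP5, a co-chaperone of the glucocorticoid receptor that glucocorticoids induce, had 4824, 1016, 277 and 374 CPM against 163 to 619 (median 217), a log2 change of 2.51 (SE 0.53, adjusted p = 0.00125). HSP90AA1 did not overlap the controls, whereas the FKBP5 rise rested on mouse 55, without which the change was 0.96 (adjusted p = 0.234). In the controls HSP90AA1 was at 1381 and 2129 CPM in mice 85 and 86 and at 2936 to 4178 in mice 87 to 90. HSPA4 (-1.18) fell in every fit, and DNAJB1 (-2.76) lost the call in 1 of 10 fits (largest adjusted p 0.0543, without mouse 90). DNAJB1 had 13.8, 16, 19.6 and 34.3 CPM, all within the control range. Control mice 87 to 90 held 190, 57.9, 58.2 and 513 CPM of it, and mice 85 and 86 held 13.1 and 11.7. FKBP4 (-1.06) lost the call in 2 of 10 fits (largest adjusted p 0.0732, without mouse 59), and STUB1, which rose (0.83), lost the call in 1 of 10 fits (largest adjusted p 0.0774, without mouse 55). Of 20 proteasome and ubiquitin genes, 5 fell and 2 rose (median -0.64), with 3 falls and no rise without mouse 55.

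Protein N-glycosylation uses dolichol-linked sugars, and of its 6 genes 3 fell (median -1.47), 2 of them also without mouse 55. DPM1, the catalytic subunit that makes dolichol phosphate mannose, had 111, 229, 512 and 218 CPM against 448 to 3010 (median 996), a log2 change of -2.17 (SE 0.44, adjusted p = 0.000785). DPM2, a subunit of the same enzyme, had 16.9, 83, 47.7 and 54.8 CPM against 94.3 to 325 (median 194), a log2 change of -1.98 (SE 0.40, adjusted p = 0.000785). DPM1 overlapped the controls in mouse 59 alone, DPM2 in no library, and both kept their calls without each library.

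Of 14 complement genes, 3 fell (21.4%, against 7.48% of all genes; median -0.81), 2 of them also without mouse 55. With the log2 total in the model 1 fell and the median was 0.17. C8B, which joins the attack complex before C9, had 14.8, 260.3, 66.8 and 325 CPM against 614 to 1526 (median 1209.8), a log2 change of -2.83 (SE 0.72, adjusted p = 0.00609). Its libraries lay under every control, mouse 55 lowest, and it was called in all fits. C8A (-1.39), of the same complex, lost the call in 2 of 10 fits (largest adjusted p 0.126, without mouse 55). Of 19 acute phase genes, 1 fell (5.26%), SERPINA3K (median -0.75), also without mouse 55, but with the log2 total in the model it was at -1.89 and not called, and the median was 0.03. Of 19 coagulation genes edgeR with TMM factors called 0 (median -0.26, or 0.10 with the log2 total), with 7 at an unadjusted p under 0.05 and 3 called by DESeq2, and 2 rose with RLE or with upper-quartile factors and 1, PLAU, without mouse 55.

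Of 14 liver tumour and oncofetal genes, 4 rose (28.6%) and none fell (median 0.66), 2 of them also without mouse 55. AFP, alpha-fetoprotein, a fetal liver protein and marker of liver tumours (ENSMUSG00000054932, chromosome 5 from 90490737 to 90508907), had 1952, 28.7, 814 and 10.7 CPM in mice 55, 56, 59 and 60 against 6.34 to 12.8 (median 8.62), a log2 change of 6.29 (SE 1.30, adjusted p = 0.000904). Mice 55 and 59 were far above all controls, mouse 56 was just above them and mouse 60 lay among them. Without mouse 55 the change was 4.98 (adjusted p = 0.0126). CCND1, cyclin D1, a target of beta-catenin, had 43.9, 22.8, 389.5 and 35 CPM against 8.7 to 48.4 (median 20.2), a log2 change of 2.48 (SE 0.60, adjusted p = 0.00429). Mouse 59 alone lay outside the control range, and CCND1 lost the call in 1 of 10 fits (largest adjusted p 0.557, without mouse 59). GDF15, a stress-induced cytokine, had 92.4, 48.7, 80.5 and 81.5 CPM against 3.83 to 38.4 (median 17.7), a log2 change of 2.06 (SE 0.63, adjusted p = 0.0206). CD44, a hyaluronan receptor, had 87.3, 151, 116 and 62.4 CPM against 11.7 to 56.1 (median 29), a log2 change of 1.81 (SE 0.58, adjusted p = 0.0284). Every treated library was above every control in these last 2 genes, but GDF15 lost the call in 3 of 10 fits (largest adjusted p 0.061, without mouse 55), and CD44 lost the call in 5 of 10 fits (largest adjusted p 0.0669, without mouse 89). CCND1 was also the single call among 12 beta-catenin and liver target genes (median -0.32), with 1 rise also without mouse 55.

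Of 51 cell cycle and DNA replication genes, 4 rose (7.84%, against 5.85% of all genes) and 1 fell (1.96%, against 7.48%), with a median of 0.68, and 4 rose and none fell without mouse 55. RRM1, the large subunit of ribonucleotide reductase, had 112, 99, 56.2 and 90.6 CPM against 30 to 50.8 (median 33.5), a log2 change of 1.23 (SE 0.27, adjusted p = 0.00189). HMGB2, a chromatin protein, had 90.9, 76.6, 207 and 83.8 CPM against 6.96 to 68.4 (median 15.3), a log2 change of 2.21 (SE 0.68, adjusted p = 0.0219). In both, the groups did not overlap. H2AFX, the histone variant that marks DNA breaks when phosphorylated, had 6.64, 5.59, 14.3 and 19 CPM against 30.9 to 70.7 (median 58.3), a log2 change of -2.28 (SE 0.63, adjusted p = 0.0102). All 4 libraries lay below the controls. RRM1 kept its call in every fit, HMGB2 lost the call in 5 of 10 fits (largest adjusted p 0.115, without mouse 59), H2AFX lost the call in 1 of 10 fits (largest adjusted p 0.0545, without mouse 55), and NUF2 (2.74), a kinetochore protein, lost the call in 5 of 10 fits (largest adjusted p 0.645, without mouse 59). NUF2 had 11.2, 12.8, 136 and 9.9 CPM against 0 to 13.4, with mouse 59 alone outside the control range. Its log2 change was as low as 0.84 in these fits.

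Of 20 p53 targets, 2 rose and 1 fell (median 0.36), all 3 also without mouse 55. AEN, an exonuclease of apoptosis, had 148, 164, 393 and 251 CPM against 50 to 116 (median 89.9), a log2 change of 1.49 (SE 0.39, adjusted p = 0.00736). GADD45A, a growth arrest gene, had 141, 62.7, 119.8 and 91.4 CPM against 65.4 to 1581 (median 112), a log2 change of -1.80 (SE 0.54, adjusted p = 0.019). AEN and BBC3 were above all controls. GADD45A lay among them in mice 55, 59 and 60 and just below them in mouse 56, the highest control being mouse 90, and it lost the call in 2 of 10 fits (largest adjusted p 0.796, without mouse 90). AEN lost the call in 1 of 10 fits (largest adjusted p 0.0687, without mouse 59). Of 21 apoptosis regulators, BBC3 and CASP1 rose and CFLAR fell, with a median of -0.03 with TMM, 0.18 with RLE and 0.33 with upper-quartile factors. Without mouse 55, 1 rose, none fell and the median was -0.32. CASP1 (2.06) lost the call in 9 of 10 fits (largest adjusted p 0.0891, without mouse 55), and CFLAR (-1.46) lost the call in 5 of 10 fits (largest adjusted p 0.0933, without mouse 55). Of 13 immediate-early genes edgeR called 0 (median -0.94), with 3 at an unadjusted p under 0.05 and 1 called by DESeq2.

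Of 11 genes of cell adhesion and catenins, 3 rose and none fell (median 0.42), CTNND1 and SDPR also without mouse 55. DSC2, a desmosome cadherin, had 560.2, 412, 92.7 and 181 CPM against 49.6 to 260.3 (median 80.7), a log2 change of 1.57 (SE 0.43, adjusted p = 0.00981). Mice 55 and 56 exceeded the controls and mice 59 and 60 did not, and without mouse 55 the change was 1.12 (adjusted p = 0.118). SDPR, a protein of caveolae, rose without overlap of the groups and in every fit.

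Collagens and matrix remodelling genes went both ways. Of 26 tested, 2 rose and 4 fell (median 0.18), with 2 rises and 1 fall without mouse 55. MMP14, a membrane protease that cuts collagen, had 613, 415, 651 and 394 CPM against 111 to 284 (median 178), a log2 change of 1.47 (SE 0.36, adjusted p = 0.00434). TGFBR2, the ligand-binding TGF-beta receptor, had 1671, 546, 2101 and 396 CPM against 199 to 454 (median 266), a log2 change of 1.96 (SE 0.51, adjusted p = 0.00716). TGFBR1, its partner receptor, had 122, 93, 133 and 80 CPM against 142 to 294 (median 219), a log2 change of -1.01 (SE 0.27, adjusted p = 0.00913). The receptors thus moved in opposite directions, TGFBR1 below every control and TGFBR2 above them except in mouse 60. TGFBR2 lost the call in 1 of 10 fits (largest adjusted p 0.0604, without mouse 59). LAMA3, a laminin chain of basement membranes, had 1.02, 13.2, 4.24 and 19.8 CPM against 26.1 to 103 (median 66.6), a log2 change of -2.72 (SE 0.80, adjusted p = 0.0163). LAMA3 lost the call in 2 of 10 fits (largest adjusted p 0.0774, without mouse 55). COL1A1, the main fibrillar collagen, had 21.4, 14.8, 134 and 122 CPM against 9.97 to 42.5 (median 23.7) and was not called with TMM, at 1.55 (SE 0.62, adjusted p = 0.0827). Mice 59 and 60 lay above the controls and mice 55 and 56 among them.

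Of 22 interferon and antigen presentation genes, 3 rose and none fell (median 0.82), and all 3 calls were lost without mouse 55. USP18, an interferon-induced protease, had 671, 452, 1107 and 494 CPM against 69.9 to 458 (median 87.5), a log2 change of 2.19 (SE 0.73, adjusted p = 0.0349). ZBP1, a sensor of unusual nucleic acids, had 98, 98.2, 80.5 and 77.7 CPM against 7.51 to 46.3 (median 21.2), a log2 change of 1.85 (SE 0.64, adjusted p = 0.0411). ZBP1 did not overlap the controls, and USP18 overlapped in 1 library. USP18 lost the call in 7 of 10 fits (largest adjusted p 0.123, without mouse 59), and ZBP1 lost the call in 8 of 10 fits (largest adjusted p 0.092, without mouse 55). Of 25 cytokine and NF-kB genes, 2 rose and 1 fell (median 0.41), with 1 rise and no fall without mouse 55. TNIP1, an inhibitor of NF-kB signalling, had 21.4, 29.5, 98.6 and 13.7 CPM against 5.84 to 11.3 (median 7.93), a log2 change of 2.32 (SE 0.62, adjusted p = 0.00884). All 4 libraries were above the controls, mouse 59 the highest, and TNIP1 lost the call in 1 of 10 fits (largest adjusted p 0.164, without mouse 59).

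Of 15 genes of growth hormone and insulin signalling, 1 rose and 2 fell (median 0.15), with 1 fall, no rise and a median of -0.02 without mouse 55. AKT1, a kinase of the insulin pathway, had 2893, 2612, 2479 and 2950.1 CPM against 895 to 1771 (median 1249.5), a log2 change of 1.08 (SE 0.33, adjusted p = 0.0192). FOXO3, a transcription factor that AKT1 keeps out of the nucleus, had 46, 132, 107 and 158 CPM against 239 to 627 (median 346), a log2 change of -1.80 (SE 0.41, adjusted p = 0.0023). Neither overlapped the controls, FOXO3 kept its call throughout, and AKT1 lost the call in 1 of 10 fits (largest adjusted p 0.0566, without mouse 55). IRS1, the insulin receptor substrate, fell and overlapped the controls in mouse 60. It lost the call in 4 of 10 fits (largest adjusted p 0.128, without mouse 55).

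GSTZ1, the enzyme that breaks down DCA, had 10633, 9128, 5046 and 7728 CPM in mice 55, 56, 59 and 60 against 4511 to 9943 (median 6874) and was not called, at 0.21 (SE 0.37, adjusted p = 0.743). Treated and control ranges overlapped. Of the 4 tyrosine catabolism genes tested, 1 fell, also without mouse 55 (median 0.14, or -0.10 without mouse 55): PCBD1, which recycles the cofactor of phenylalanine hydroxylase, with 546, 621, 467 and 624 CPM against 1337 to 2248 (median 1568) and a log2 change of -1.58 (SE 0.31, adjusted p = 0.000433). Of 10 urea cycle and amino acid genes, 1 fell, also without mouse 55 (median -0.30): AADAT, a transaminase of tryptophan and lysine breakdown, with 111, 155, 36.6 and 121 CPM against 401 to 602 (median 472) and a log2 change of -2.20 (SE 0.51, adjusted p = 0.00249). Both lay below every control in 4 of 4 libraries. Of 7 circadian genes, 1 fell, CSNK1A1 (median -0.88), not called without mouse 55, which lost the call in 7 of 10 fits (largest adjusted p 0.118, without mouse 59).

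**Figure D4:**
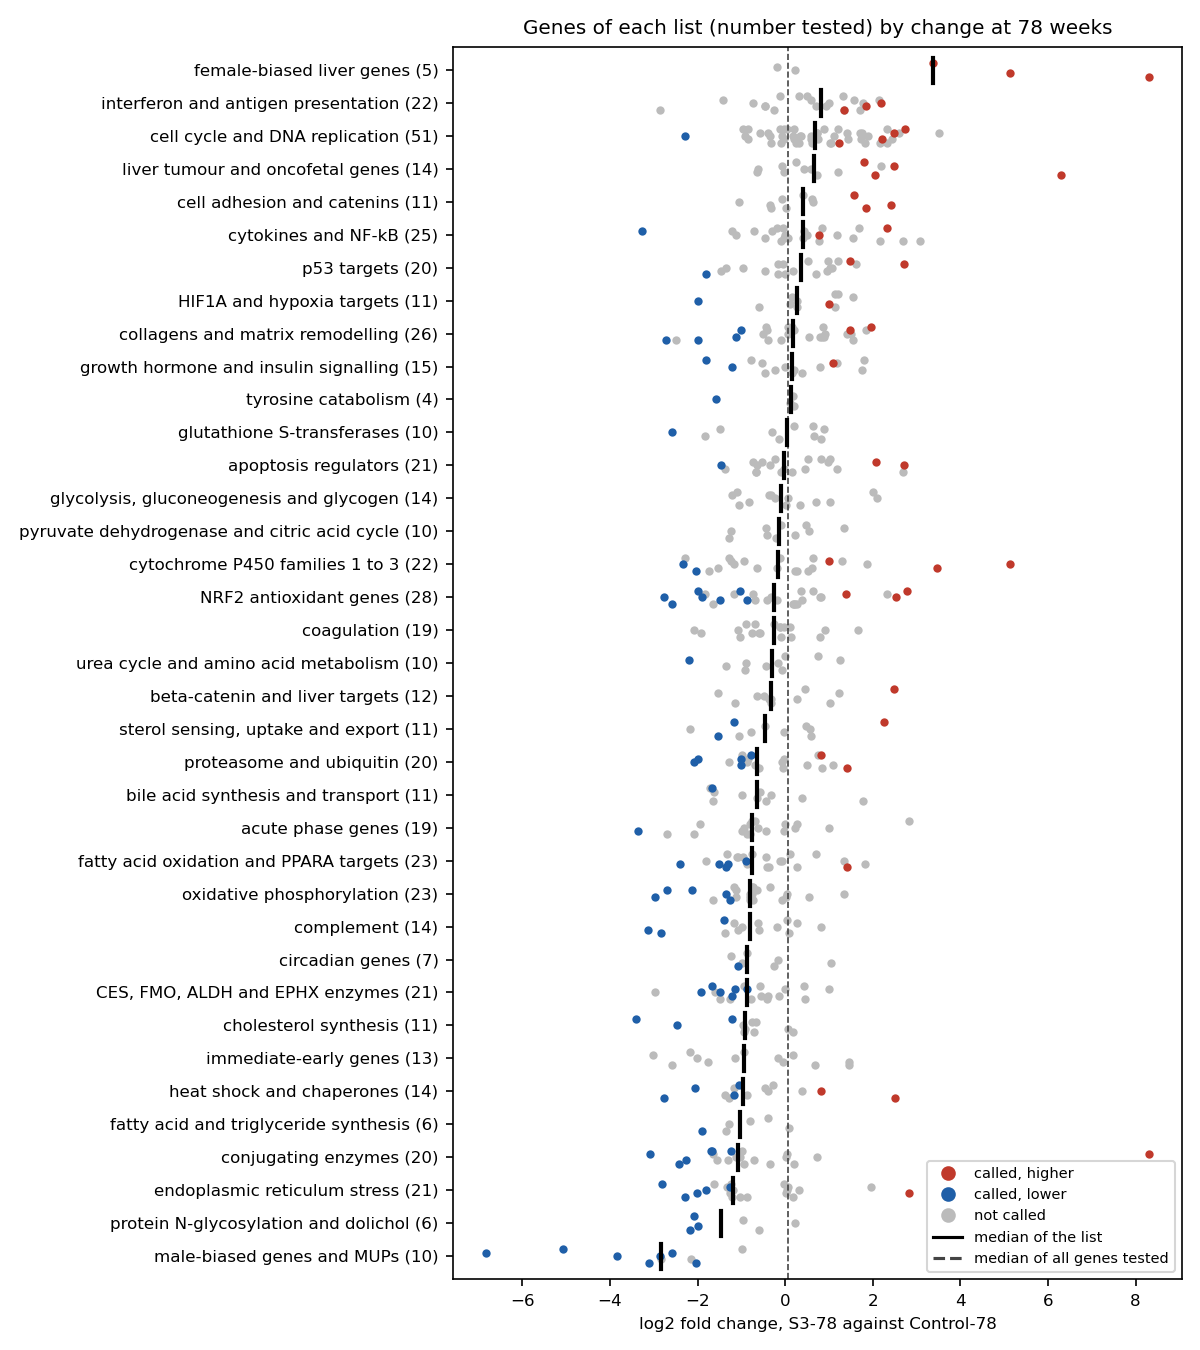
Log2 fold change in S3-78 against Control-78 for each tested gene of the lists, with called genes in red (higher) and blue (lower), other genes in grey, the list's median as a black bar and the median of all genes (0.07) as a dashed line. The male-biased genes lie furthest to the left (median -2.84) and the female-biased furthest to the right (median 3.38, or 0.49 without mouse 55), and with RLE or upper-quartile factors the medians of the NRF2, citric acid cycle, glycolysis and apoptosis lists, and with upper-quartile factors that of the cytochromes, are above 0, while without mouse 55 the medians of the glutathione transferase, tyrosine and growth hormone lists are below 0. With the log2 total in the model those of the citric acid cycle, apoptosis, cytochrome, beta-catenin, complement, acute phase and coagulation lists are above 0 and that of the tyrosine list below.

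S3-57 was collected as DCA ended, so it asks which of these changes were already there. It shares no library with the comparison at 78 weeks. Against Control-57, 141 genes were called (6.39%), and 83 of them were called in S3-78 as well, which is 58.9% of the list at 57 weeks and 28.2% of that at 78 weeks. Of these, 35 were higher at both ages (55.6% and 27.1%), 48 were lower at both (61.5% and 29.1%), and 0 went in opposite directions. Without mouse 55 and the S3-57 library with the highest SULT3A1, mouse 51, a choice made after seeing the data, 28 genes were shared between lists of 62 and 182 (45.2% and 15.4%), 6 of them higher and 22 lower. The 129 genes that rose in S3-78 had a median log2 fold change of 1.68 there and 0.84 in S3-57, and the 165 that fell had medians of -1.57 and -0.89, but they were chosen on the values at 78 weeks.

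No gene differed between the changes at 57 and 78 weeks by edgeR's interaction test (0 of 2205, 0.00%), with 162 genes at an unadjusted p under 0.05, 1 gene called by DESeq2 and 7 without mouse 54 of S3-57. DPM1, the dolichol enzyme, was at 96.8 to 313 (median 157) CPM in S3-57 against 351 to 2057 (median 1075) in Control-57, a log2 change of -2.52 (SE 0.41, adjusted p = 8.45e-05). EBP, of cholesterol synthesis, was at 3.43 to 61.7 (median 19) CPM against 26.3 to 265 (median 138), a log2 change of -2.58 (SE 0.57, adjusted p = 0.00322). FMO5 was at 626 to 1215 (median 738) CPM against 1509.7 to 3512 (median 2406), a log2 change of -1.57 (SE 0.29, adjusted p = 0.000386). The groups did not overlap at 57 weeks in DPM1 and FMO5, and the interaction values were 0.35 (SE 0.56, adjusted p = 0.848) for DPM1, -0.82 (SE 0.78, adjusted p = 0.743) for EBP and -0.10 (SE 0.41, adjusted p = 0.942) for FMO5.

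Also called at both ages were the complement genes C9 and C8B, the respiratory gene NDUFB5, DECR1, PRDX1, ME1, APOE, CANX, PCBD1 and AADAT among the falls, and SULT3A1, CTNND1, AKT1 and FKBP5 among the rises. At 57 weeks SULT3A1 was at 1002 CPM in mouse 51 and at most 11.8 in the other 4 treated libraries, and FKBP5 at 3531 and at most 612 against controls of up to 710. Without mice 51 and 55, SULT3A1, CTNND1, AKT1 and FKBP5 had log2 fold changes of 1.43, 1.27, 0.76 and 0.39 at 57 weeks and none of these 4 calls was kept there, and among the falls named here those of C9, C8B and AADAT were lost at 57 weeks. CTNND1 was at 2147 to 9877 (median 3514) CPM in S3-57 against 1058 to 1658 (median 1295), a log2 change of 1.78 (SE 0.40, adjusted p = 0.00361). Its 5 treated libraries lay above all 6 controls at 57 weeks as at 78 weeks. MUP15, not called at 57 weeks, was at 0 to 638 (median 74.2) CPM against 33.1 to 1222 (median 285), a log2 change of -1.25 (SE 1.21, adjusted p = 0.645), and the interaction was -5.57 (SE 1.92, adjusted p = 0.578). AFP was at 4.73 to 137 (median 20.2) CPM against 2.59 to 16.5 (median 9.27), a log2 change of 2.29 (SE 1.11, adjusted p = 0.244), and the interaction was 4.00 (SE 1.62, adjusted p = 0.641). For both genes the difference between 57 and 78 weeks was thus tested and not called.

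**Figure D5:**
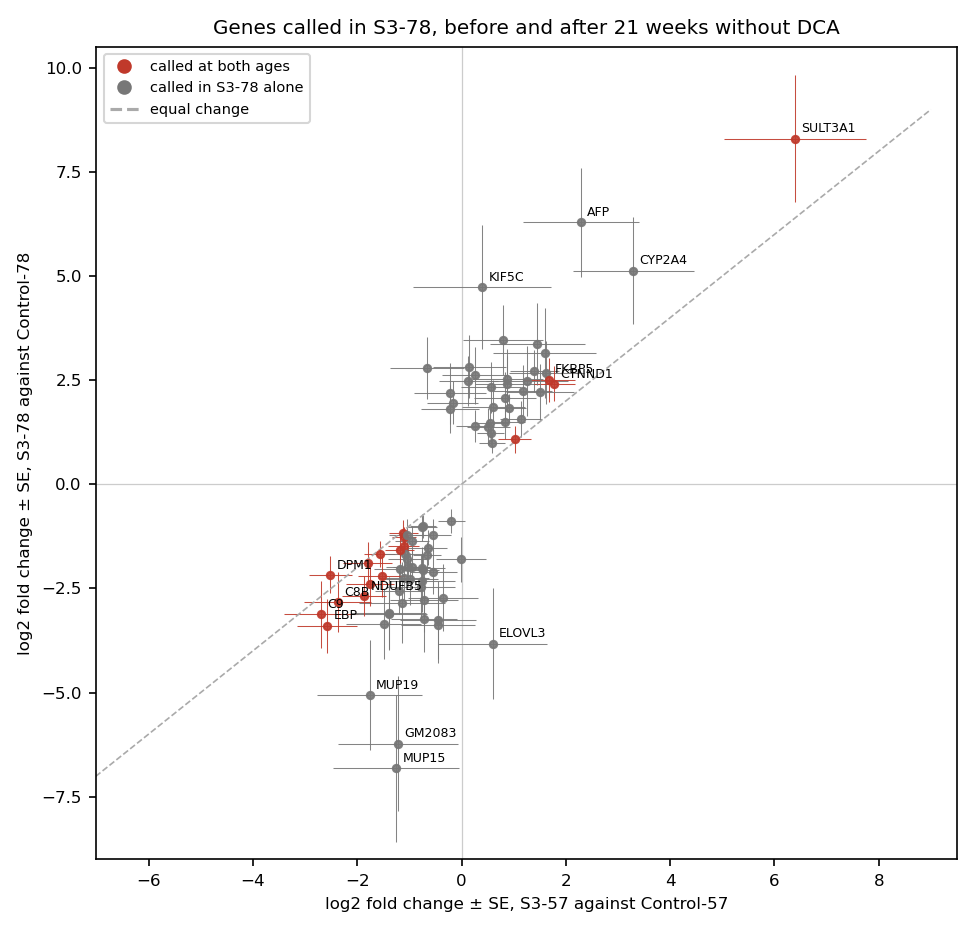
Log2 fold change with its SE in S3-57 against Control-57 (horizontal) and in S3-78 against Control-78 (vertical) for genes called in S3-78 whose values are described, red where called at both ages. EBP, C9, C8B and DPM1 lie near the dashed line of equal change, and MUP15, MUP19 and AFP lie further from 0 at 78 weeks, with SEs of 1.76, 1.31 and 1.30 there.

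Direct-78 drank DCA until collection at the same age, so against S3-78 it differs both in 21 more weeks of DCA and in having no time on water. S3-78 was above Direct-78 in 103 genes (4.67%) and below it in 8 (0.363%), 111 in all (5.03%). No count at all was found in Direct-78 for 40 of the 103, and its 3 libraries held 541245 to 699825 counts. With RLE factors 77 genes were above and 18 below, and with upper-quartile factors 85 and 18. The count was 0 with all 78 libraries in the fit (240 genes at an unadjusted p under 0.05), 0 with only the compared groups (205), 174 with DESeq2 and 31 when the log2 total was in the model. It was 58 without mouse 55, 73 without mouse 56 and 185 without mouse 59 of S3-78, and 67, 173 and 69 without mouse 64, 65 or 66 of Direct-78. Counting only genes with a count in Direct-78, a choice made after seeing the data, left 71.

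The 8 genes below Direct-78 included metabolic enzymes. ACADM, which starts the oxidation of medium-chain fatty acids, had 1155, 1182, 794 and 1091 CPM in mice 55, 56, 59 and 60 against 2737, 2478 and 3547 in mice 64, 65 and 66, a log2 difference of -1.47 (SE 0.39, adjusted p = 0.0188). FABP2, a fatty acid binding protein, had 148, 320.2, 1125 and 319.8 CPM against 2838, 1789.5 and 4583, a log2 difference of -2.68 (SE 0.62, adjusted p = 0.00701). No S3-78 library of these 2 genes reached the lowest of Direct-78. CYCS, cytochrome c, had 99.6, 109, 231 and 142 CPM against 487, 336 and 420.3, a log2 difference of -1.51 (SE 0.40, adjusted p = 0.0194). USP14, a deubiquitinase of the proteasome, had 9.7, 20.8, 40.3 and 21.3 CPM against 71.2, 70.2 and 111, a log2 difference of -1.87 (SE 0.48, adjusted p = 0.0163). They did not overlap either. ME1 was lower in S3-78, with 775, 2369.8 and 279.7 CPM in Direct-78 and a log2 difference of -1.97 (SE 0.56, adjusted p = 0.0264), though the ranges overlapped.

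Among the 59 candidates for naming, called genes whose groups did not overlap, the 5 largest differences above Direct-78 were in genes with no count there. Against a floor of 3 counts in each Direct-78 library (2.96, 4.05 and 4.05 CPM), LTB, lymphotoxin beta, was at least 12.2-fold higher, NUDT9 at least 6.92-fold, MLLT11 at least 5.95-fold, TGTP1, an interferon-induced GTPase, at least 5.36-fold and PAK6 at least 4.85-fold, each from the mean of 4 S3-78 libraries over the mean floor. Leaving out 1 library lowered the bounds to 3.13 for LTB, 3.22 for TGTP1 and 2.68 for PAK6 (without mouse 59), 3.74 for NUDT9 (without mouse 55) and 5.46 for MLLT11 (without mouse 60), and LTB in mouse 60 and NUDT9 in mouse 59 lay under the mean floor of 3.69 CPM. MLLT11 had 19.9, 23.6, 17 and 27.4 CPM in the S3-78 libraries, and LTB had 24, 7.58, 145 and 3.05 CPM, so that mouse 59 carried much of its mean. Genes with counts in Direct-78 that were higher in S3-78 included TGFBR1, with 33.6, 71.5 and 44.6 CPM in Direct-78 and a log2 difference of 1.10 (SE 0.33, adjusted p = 0.034), and DPM2, with 16.8, 14.8 and 9.46 CPM and 1.87 (SE 0.50, adjusted p = 0.0194). Both genes were above Direct-78 in every S3-78 library. Among genes called against the controls, MUP15, CTNND1 and GSTP1 were not called between S3-78 and Direct-78. MUP15 had 9.88, 18.9 and 35.1 CPM in Direct-78, a log2 difference of -1.12 (SE 1.62, adjusted p = 0.78). CTNND1 had 4389, 2873 and 3739 CPM, a log2 difference of 0.72 (SE 0.51, adjusted p = 0.438), and GSTP1 had 1820.3, 3621 and 2983 CPM, a log2 difference of 0.36 (SE 0.57, adjusted p = 0.79). The S3-78 libraries overlapped Direct-78 in MUP15 and GSTP1 and lay above it in CTNND1.

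S2-78 drank DCA for 32 weeks and was collected at the same age, with 46 weeks of water against 21 in S3-78, so the length of exposure and the time since it ended differ together. S3-78 differed in 36 genes (1.63%), 9 above S2-78 (0.408%) and 27 below (1.22%). With RLE factors 10 were above and 41 below, and with upper-quartile factors 18 and 31. The count rested on single libraries: it was 0 without mouse 43 or 44 of S2-78 (235 and 242 genes at an unadjusted p under 0.05) or mouse 55 of S3-78 (268), 126 without mouse 45, 154 without mouse 47 and 18 without mouse 60, against 152 from DESeq2. It was 16 with all 78 libraries and 0 with only the groups compared (141 genes at an unadjusted p under 0.05).

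GM9790 had 88.6, 92.4, 16.7 and 15.5 CPM in mice 43, 44, 45 and 47 of S2-78, above all 4 S3-78 libraries, a log2 difference of -3.95 (SE 0.85, adjusted p = 0.00836). NDUFB5 had 1102, 1407, 347 and 177 CPM there, a log2 difference of -2.28 (SE 0.49, adjusted p = 0.00836). DECR1 had 1479.7, 1408, 281 and 97.4 CPM, a log2 difference of -2.66 (SE 0.56, adjusted p = 0.00836). The S2-78 libraries formed a high and a low pair in NDUFB5 and DECR1, and mouse 47 overlapped S3-78 in both. AFP was higher in S3-78, with 13.6, 14.7, 4.82 and 7.76 CPM in S2-78 and a log2 difference of 6.11 (SE 1.56, adjusted p = 0.0324). S3-78 mouse 60, at 10.7 CPM, lay within the S2-78 range, and mice 55 and 59, at 1952 and 814 CPM, lay far above it. GSTT3, a glutathione transferase, had 140.1, 222, 182 and 185 CPM in S2-78 and 1805, 561, 228 and 441 CPM in S3-78, a log2 difference of 2.06 (SE 0.56, adjusted p = 0.0445), without overlap but with mouse 59 close to the S2-78 range. CAST, the calpain inhibitor, was at 0, 1.91, 1.7 and 1.72 CPM in S2-78 and 7.66, 5.99, 14.8 and 13.7 CPM in S3-78, a log2 difference of 2.90 (SE 0.79, adjusted p = 0.0445), with no overlap. NHP2, HEXA and PCOLCE were lower in every S3-78 library than in S2-78, with log2 differences of -1.52, -1.47 and -1.40. MUP19 had 101590, 87034, 3377 and 1461 CPM in S2-78, a log2 difference of -5.11 (SE 1.34, adjusted p = 0.0381), with mice 43 and 44 above every library of Control-78 and mice 45 and 47 in the range of S3-78. Calls are given here for S3-78 against Direct-78 and S2-78 and not for these groups against the controls, and S3-78 libraries are shared by these comparisons.

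These results rest on 4 treated and 6 control livers, measured on a panel of genes and not on the whole transcriptome. A fold change of a gene with few counts is imprecise, as the SEs show, and 2 tested genes had no count in S3-78. The S3-78 libraries held fewer counts than any control, and mice 57 and 58 of the same group were left out of the deposited normalized table. Protein, enzyme activity and cell numbers were not measured. No tumour or lesion is given for any library in the labels used, so differences between mice of a group cannot be related to pathology here. Replicates differed by more than counting error in all 55 pairs of libraries compared, with a smallest chi-square per degree of freedom of 33.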

How the data were processed

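Liver RNA from 78 mice in 13 groups was measured by TempO-Seq on a panel of 2755 genes. Per the labels and the submitters' processing notes, reads were matched to probes with Bowtie (mm10) and the deposited values are counts per gene. The authors kept 68 libraries, and their deposited normalized and filtered tables hold signal, the count plus 1 divided by a median-ratio factor per library (Partek 10.0.22.0524). The counts of the 68 libraries and the 2205 genes of the filtered table were fitted in 1 model of the 13 groups with edgeR 4.0.16 (R 4.3.3, limma 3.58.1), using TMM factors, quasi-likelihood F tests and Benjamini-Hochberg adjustment over all genes tested. Calls needed a fold change past 1.5 together with an adjusted p no greater than 0.05, and the interaction that adjusted p alone. The model was run on simulated counts, drawn from the Control-78 means with changes set in S3-78 alone. That run checked the code and does not measure how reliable the calls are in these libraries. Total counts per library, given with the results, set the precision: replicates differ by more than counting error, so SEs come from the model.

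Genes were named by rule. The first were the 10 largest rises and 10 largest falls among called genes within set limits. Their S3-78 libraries all lie beyond all Control-78 libraries, and their mean reaches 10 CPM in either group. Called or defining members of gene lists and genes that the study names were added. In the other comparisons the largest differences, up to 5 each way, were taken from called genes whose groups did not overlap. There were 59 candidates against Direct-78 and 6 against S2-78. Members and lists were chosen with earlier results of these data known, and results for some named genes are not reported here. Lists are described by counts and medians, without a set test. Alternatives were RLE and upper-quartile factors, DESeq2 1.42.0, other gene filters (filterByExpr with 2697 genes, or the 2755 genes with a count), all 78 libraries, only the groups compared, log2 total count as a covariate, binomial thinning to 1154431 counts, adjusted p alone and leaving out each library. Gene positions are from GENCODE vM21 and promoters from RefSeq, both on GRCm38. Figures were drawn with Python 3.11.15 and matplotlib 3.10.9.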

Additional observations from a re-analysis of the deposited data

Results flagged for a closer look

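For 89 of the genes named for S3-78 against Control-78, among them the 10 largest rises and 10 largest falls, the highest and lowest library of S3-78 and of Control-78 was compared with the rest of its group by the gap to the nearest library over the group's range, 178 values of gene and group in all. In 24 the gap was wider than 95% of chance samples from a normal distribution give, about 1 in 20. CPM are skewed and most of these genes were named for their changes, so 1 in 20 is no fair rate for them. Of the 24, 7 were in mouse 59 of S3-78, 3 in mouse 55, 2 in mouse 60 and 1 in mouse 56, and 7 were in mouse 86 of Control-78, 2 in mouse 90, 1 in mouse 85 and 1 in mouse 87.

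In S3-78, mouse 59 was the highest library by a gap of 0.92 of the range in KIF5C, 0.941 in SASH3, 0.942 in CCND1, 0.868 in NFE2L2, 0.885 in CBR3 and 0.89 in HMGB2, and the lowest by 0.901 in HERPUD1. Mouse 55 was the highest in SULT3A1 (0.974), CYP17A1 (0.913) and FKBP5 (0.837). Mouse 60 was the highest in BBC3 (0.832) and ELOVL3 (0.957), and mouse 56 in GCLM (0.833). In Control-78, mouse 86 was the highest in TCEA2 (0.637), CCND1 (0.657), APOE (0.637), HADHA (0.646), SLC27A1 (0.677), DPM1 (0.719) and USP18 (0.88), mouse 90 in SRXN1 (0.82) and GADD45A (0.898), mouse 85 in DSC2 (0.832) and mouse 87 in FKBP5 (0.698).

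Mice 57 and 58 of S3-78, which the comparisons do not use, held 244409 and 518956 counts. As CPM of their unscaled totals, both exceeded every Control-78 library in 9 of the 89 genes; genes named in other comparisons or more briefly were not screened. KIF5C was at 180 and 38.5 in mice 57 and 58, INHBA at 4902 and 3199, NQO1 at 118.7 and 40.5, TCEA2 at 85.9 and 23.1, HMGB2 at 478.7 and 240.9, and TNIP1 at 118.7 and 40.5. MUP13 was at 35670 and 28200 and MUP8 at 574700 and 474100, while MUP13 fell in the libraries compared. IL18 was at 28.6 and 21.2 against 2.38 to 20.1 in the controls, while IL18 fell in the libraries compared. Of the 35 rises among the 89 genes, both libraries lay above every control in 6, and of the 48 falls both lay below every control in 40. Over all 2205 genes both lay above every control in 13.2% and below in 41.5%, and MUP8 took 57.5% and 47.4% of their counts. Rises not seen in both include BBC3, at 36.8 and 25.1 within the control range of 8.58 to 70.9, CTNND1, at 732 in mouse 57 within the range of 643 to 1073 and 1505 in mouse 58, and AFP, ABCG1 and SDPR, with no count in either. The cause of these differences between libraries was not tested.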

How the results depend on the processing

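For S3-78 against Control-78 the 294 calls became 117 with log2 total count as a covariate, and 167 without mice 55 and 86, a choice made after seeing the data. Leaving out 1 library at a time gave 148 to 316. RLE or upper-quartile factors, other gene filters, all 78 libraries, only the groups compared, adjusted p alone, thinning and DESeq2 gave counts within 1.5 times 294. Of 121 called genes followed, 115 kept the call with RLE factors, 103 with upper-quartile factors, 121 with DESeq2, 118 with filterByExpr, 114 with all genes that had a count, 118 after thinning, 91 with only the groups compared, 88 with all 78 libraries and 36 with the covariate. Without mouse 55, 66 kept it, without mouse 59, 80, and without each other library 99 to 115.

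For S3-78 against Direct-78 the 111 calls became 0 with all 78 libraries (240 genes at an unadjusted p below 0.05 in edgeR), 0 with only the groups compared (205), 174 with DESeq2, 31 with the covariate, and 71 over genes with a count in Direct-78, a choice made after seeing the data. Leaving out 1 library gave 58 to 185. The difference in change between 78 and 57 weeks, at 0 calls in edgeR (162 genes at an unadjusted p under 0.05), gave 1 with DESeq2 and 0 to 7 without 1 library, and 0 without mice 55 and 51 (201 at that p), also chosen after seeing the data. For S3-78 against S2-78 the 36 calls became 16 with all 78 libraries, 152 with DESeq2, 0 with only the groups compared (141 genes at an unadjusted p under 0.05) and 57 with the covariate, and 0 to 154 without 1 library.

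Among the 130 genes followed for S3-78 against Control-78, changes of sign were found in 5; genes named only in the other comparisons were not followed. MUP13, called lower, was at 0.0219 with all 78 libraries. For S3-78 against Control-78, CEBPB, which was not called, was at -0.19 with all 78 libraries, -0.89 with the covariate, -0.0503 to 0.39 without 1 library (lowest without mouse 55) and -0.0006741 without mice 55 and 86. GSTZ1 was at -0.31 with all 78 libraries. NFE2L2 was at -0.32 with all 78 libraries and -0.50 (without mouse 59) to 0.52 without 1 library. COL4A1 was at -0.49 (without mouse 55) to 0.53 without 1 library and -0.67 without mice 55 and 86. The cause was not tested for any of these. Thinning to 1154431 counts left 280 calls for S3-78 against Control-78. Direct-78 held 541245 to 699825 counts per library, and 40 of the 103 genes called above it had no count there. Thinning was not run for Direct-78.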
